A study of Mus musculus with 7 samples.

Results

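Epiregulin (Ereg) and amphiregulin (Areg), growth factors of the epidermal growth factor (EGF) family, were described here together with 5 further ligands of the family (Hbegf, Tgfa, Btc, Egf and Nrg1) and 3 of its receptors (Egfr, Erbb2 and Erbb3). These are 10 of the 23930 genes in the table. They are listed by name and were chosen by their RPM in these same normocapnia and hypercapnia libraries, the values reported below. Differences of the 10 genes between the groups are therefore given as a description, without p-values. Some of these genes are said below to pass or miss the thresholds of the study, which include an unadjusted p. Such calls rest on the same values that chose the genes, so they too are given only as a description.

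Bulk RNA was read from sorted GFP-positive mononuclear cells of mouse hind leg muscle in 3 normocapnia libraries (NC1, NC2 and NC3) and 4 hypercapnia libraries (HC1 to HC4). All mice carried an inducible Pax7-GFP reporter on a background taken here as C57BL/6, since the growth protocol names littermates of that strain while the number after the slash in the genotype label rises from sample to sample. In this reporter a tamoxifen-activated Cre expressed from the Pax7 locus switches on a fluorescent protein for good. Pax7 marks satellite cells, the stem cells of muscle, and cells that descend from a labeled cell stay green, so the sort collects progeny as well as stem cells. All mice received tamoxifen, started at 12 weeks of age and were collected at 16 weeks of age after 4 weeks in either condition. Normocapnia mice breathed room air and hypercapnia mice lived in a chamber with 10% CO2. The methods state that cells were taken 3 days after leg muscles of both groups were injected with cardiotoxin, which destroys myofibers. The labels do not mention the injury, and the title of the deposited table carries a different time. Neither the number of mice behind a library nor any pooling is stated, so p-values measure only the spread between these libraries.

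Ligands of the EGF family are made as membrane proteins and are released by proteases of the ADAM group. They bind ERBB receptors, which pair up, phosphorylate each other and pass the signal on through adaptors, RAS and the ERK kinases, and through PI3 kinase and AKT. Ereg, Areg, Hbegf, Tgfa, Btc and Egf bind the EGF receptor (Egfr), with Ereg, Btc and Hbegf also binding Erbb4, whereas neuregulin 1 (Nrg1) binds Erbb3 and Erbb4. Erbb2 has no known soluble ligand and acts as a partner of the others. In muscle, neuregulin signaling is known from the neuromuscular junction and from Schwann cells, and macrophages and regulatory T cells are known sources of Areg in injured tissue.

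What these ligands share is a domain held together by 6 cysteines. Its coding sequence is shown for 4 ligands so that Ereg and Areg can be set beside relatives that showed a different pattern, with the cysteine codons in capitals, from the first to the last cysteine. The sequences come from GENCODE transcripts of mouse build GRCm38, and each spans 108 bases, or 36 codons, in 2 exons.
Ereg, chr5:91088496-91089111, plus strand: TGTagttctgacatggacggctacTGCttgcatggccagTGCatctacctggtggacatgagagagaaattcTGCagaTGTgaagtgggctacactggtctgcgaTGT
Areg, chr5:91143614-91144364, plus strand: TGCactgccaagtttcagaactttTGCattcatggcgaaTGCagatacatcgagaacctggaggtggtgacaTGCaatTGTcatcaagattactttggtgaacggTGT
Btc, chr5:91362421-91366197, minus strand: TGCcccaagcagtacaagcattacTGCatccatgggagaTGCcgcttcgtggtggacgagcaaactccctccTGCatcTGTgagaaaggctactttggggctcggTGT
Tgfa, chr6:86263200-86269960, plus strand: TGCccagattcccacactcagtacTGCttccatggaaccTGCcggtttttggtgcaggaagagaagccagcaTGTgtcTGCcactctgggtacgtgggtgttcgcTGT
The cysteine codons fall at the same places in all 4. Ereg and Areg shared 58 of the 108 bases (53.7%), which is fewer than Areg shared with Btc (57.4%) or Tgfa with Btc (62.0%). The panel reads each gene from 1 amplicon, whose position the sources used here do not give, and no expression value can be placed on these stretches.

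Levels are given as RPM, in which the reads of each library that matched the panel are scaled to the same sum. Because each gene has its own amplicon, RPM compares 1 gene between libraries and not 1 gene with another. Library totals ran from 14527445 to 23388710 reads, and 3 reads, taken as the floor, correspond to 0.128 to 0.207 RPM. The floor covers counting error only, whereas SD and SE measure the spread between libraries. Differences are hypercapnia minus normocapnia on the log2(RPM + 1) scale, which understates changes of genes near or under 1 RPM. Of the 10 genes, 8 had a mean of at least 1 RPM, and Tgfa and Btc lay below it.

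Libraries stood apart in ways that the groups do not explain. Pax7 ran from 4.34 RPM in NC3 to 268 RPM in NC1, and the satellite and myogenic list of 12 genes summed to 538 to 4412 RPM in normocapnia and 860 to 1706 RPM in hypercapnia. Myod1, the myogenic regulator, ran from 7.92 to 302 RPM. The 12 macrophage genes summed to 12467 to 35196 RPM in normocapnia and 20339 to 25242 RPM in hypercapnia, and the macrophage lysozyme gene Lyz2 was at 8354 RPM or more in every library, which goes against a pure satellite cell sort. Among the macrophage genes the one past the thresholds was Adgre1, at 70.5 to 149 RPM in normocapnia and 151 to 429 RPM in hypercapnia. Genes of other cell types were detected as well, and the sum of each list overlapped between the groups. The 10 neutrophil genes summed to 263 to 1486 RPM over the 7 libraries, with S100a8 from 6.63 to 52.9 RPM. The 12 genes of lymphoid cells, mast cells and basophils summed to 302 to 946 RPM, the 8 endothelial genes to 60.0 to 578 RPM (Pecam1 from 26.2 to 317 RPM) and the 7 fibro-adipogenic genes to 973 to 2372 RPM (Pdgfra from 3.37 to 13.7 RPM). The 8 Schwann cell genes summed to 11.2 to 116 RPM, with Sox10 at 0.151 to 2.5 RPM. The 6 epithelial genes summed to 2.86 to 27.0 RPM, with the keratins Krt5 and Krt14 at 0 in all 7 libraries. NC1, NC2, HC1 and HC2 expressed Xist, and NC3, HC3 and HC4 expressed Y-linked genes, so NC3 is the only normocapnia library of its class. In bulk RNA, fewer cells of a type and less RNA per cell cannot be told apart.

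Ereg had the largest difference of the 10 genes. It was at 6.65, 50.3 and 22.0 RPM in NC1, NC2 and NC3. In HC1 to HC4 it was at 1.58, 0.703, 2.06 and 1.62 RPM. All 4 hypercapnia libraries lay below all 3 normocapnia libraries, and the lowest normocapnia value was 3.22 times the highest hypercapnia value. The means were 26.3 ± 22.1 (SD, n = 3) and 1.49 ± 0.570 RPM (SD, n = 4), a 17.6-fold ratio, and the difference was -3.09 ± 0.67 (SE). These values rest on 149 to 1176 reads a library in normocapnia and on 14 to 37 in hypercapnia, above the floor. The normocapnia libraries varied 7.57-fold among themselves, with NC1 lowest. The size of the difference depended on them: it was -2.44 without NC2 and -3.82 without NC1.

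Among the markers of other cell types, 1 gene past the thresholds was lower in hypercapnia like Ereg. Its normocapnia libraries stood in another order than those of Ereg. Cdh1, which encodes the adhesion protein E-cadherin, was at 9.23, 26.9 and 3.65 RPM in NC1, NC2 and NC3 and at 1.20, 2.11, 2.62 and 1.96 RPM in HC1 to HC4. Its difference was -1.91 (adjusted p = 0.92, limma), while Epcam of the same list had -0.31 and the keratins Krt8 and Krt18 had 0.65 and 0.91. Krt8 was at 3 reads or fewer in all 3 normocapnia libraries and Krt18 in NC2 and NC3. Past the thresholds in the other direction were the macrophage gene Adgre1 (1.31), the neutrophil collagenase Mmp8 (1.25) and the basophil protease Mcpt8 (0.82). Their adjusted p was 0.92, 0.81 and 0.92 (limma), and Mcpt8 was under the floor in NC2 (0.086 RPM). Their lists were mixed, with 4 of 12 macrophage genes and 3 of 10 neutrophil genes lower. In the list of lymphoid cells, mast cells and basophils 6 of 12 genes were lower. Foxp3, the defining factor of regulatory T cells, was at 0 in NC3, HC1 and HC2 and highest in HC4, at 0.745 RPM. The part of the cell mixture in the Ereg and Areg values was not tested.

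Areg followed with the same order of normocapnia libraries. It was at 12.7, 52.0 and 34.2 RPM in NC1, NC2 and NC3. Its values in HC1 to HC4 were 9.76, 8.84, 7.93 and 3.79 RPM. The groups again did not overlap, but by a narrow margin, since NC1 was 1.3 times HC1. The means were 33.0 ± 19.7 (SD, n = 3) and 7.58 ± 2.63 RPM (SD, n = 4), a 4.35-fold ratio, and the difference was -1.84 ± 0.55 (SE). It was -1.42 without NC2, -1.71 without NC3 and -2.40 without NC1, and without NC2 or without NC3 Areg no longer passed the thresholds explained below. Areg also missed these thresholds in the fit with the replicate number as a block and in the fit of the libraries with Xist alone. Within the hypercapnia group the 2 genes ordered the libraries differently: Ereg was highest in HC3 and Areg in HC1, and Areg was lowest in HC4 whereas Ereg was lowest in HC2.

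**Figure D1:**
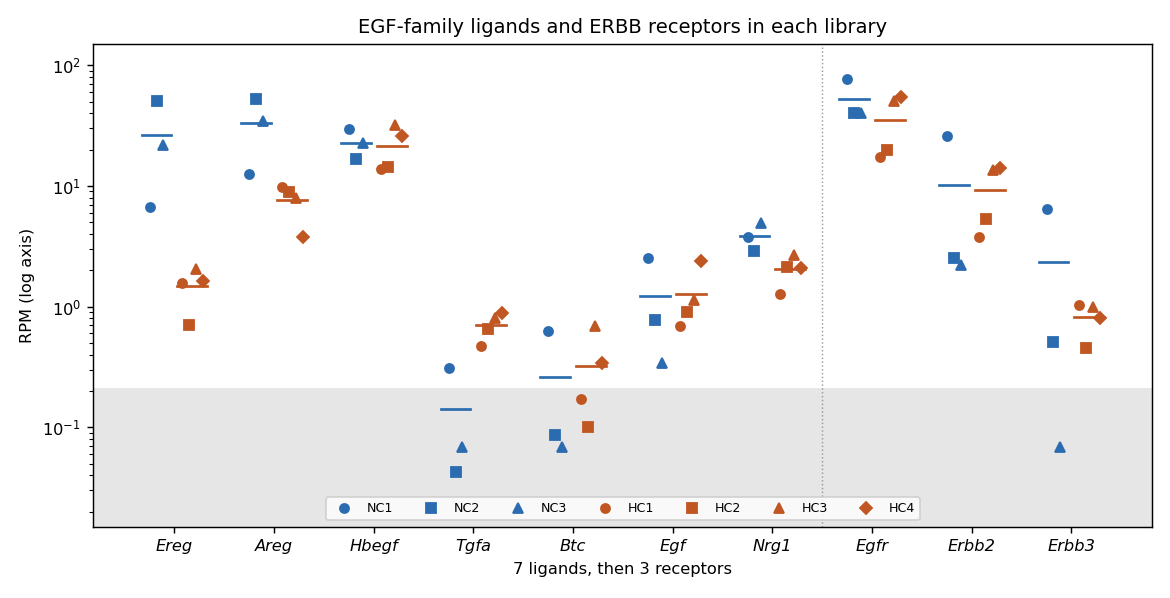
RPM (log axis) of the 7 ligands and 3 receptors in each library, normocapnia in blue and hypercapnia in orange, with horizontal bars for group means and grey for values under 0.207 RPM, the highest floor of 3 reads. Ereg, Areg and Nrg1 have all hypercapnia points below all normocapnia points, Tgfa has them above, and the other 6 genes overlap.

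Hbegf, the heparin-binding ligand of Egfr, did not separate the groups. It was at 29.4, 16.7 and 22.5 RPM in NC1, NC2 and NC3. The hypercapnia values, HC1 to HC4, were 13.9, 14.4, 31.7 and 25.8 RPM. The highest and the lowest library were both hypercapnia libraries, and the difference was -0.14 ± 0.37 (SE). It kept the narrowest spread of the ligands, 2.28-fold from the highest to the lowest library.

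Transforming growth factor alpha (Tgfa), another Egfr ligand, went the other way but at very low levels. It was at 0.312, 0.0430 and 0.0690 RPM in NC1, NC2 and NC3. HC1 to HC4 gave 0.471, 0.653, 0.812 and 0.880 RPM. All hypercapnia libraries lay above all normocapnia libraries, on 11 to 13 reads a library in hypercapnia against 7, 1 and 1 reads in NC1, NC2 and NC3. Over the groups these are 50 of 74039510 reads and 9 of 60336120 reads. The log2(RPM + 1) difference was 0.58 ± 0.12 (SE), a 1.49-fold change that fell just short of the 1.5-fold threshold. It did pass the thresholds with a pseudocount of 0.1 RPM in place of 1, where the difference was 1.87. Tgfa also passed in edgeR with a filter, in DESeq2, without NC1, without HC1 and without HC2. In the other fits with more than 1 library in each group it did not pass.

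Betacellulin (Btc) and Egf itself were low and overlapped between the groups. Btc was at 0.624, 0.0860 and 0.0690 RPM in NC1, NC2 and NC3 and at 0.171, 0.10, 0.687 and 0.339 RPM in HC1 to HC4. It was at or under 3 reads in 3 of the 7 libraries, so its levels there were not distinguishable from the floor. Egf was at 2.54, 0.770 and 0.344 RPM in NC1, NC2 and NC3 and at 0.685, 0.904, 1.12 and 2.37 RPM in HC1 to HC4. The differences were 0.08 ± 0.22 (SE) for Btc and 0.11 ± 0.41 (SE) for Egf. Both genes had their highest normocapnia value in NC1 and their lowest in NC3.

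Nrg1, the ligand of Erbb3 and Erbb4, was lower in hypercapnia by a small amount. It was at 3.79, 2.91 and 4.96 RPM in NC1, NC2 and NC3. In HC1 to HC4 it was at 1.28, 2.11, 2.69 and 2.10 RPM. The groups did not overlap, although NC2 was only 1.08 times HC3. The means were 3.88 ± 1.03 (SD, n = 3) and 2.04 ± 0.577 RPM (SD, n = 4), and the difference was -0.68 ± 0.21 (SE). It was -0.68 without NC1, -0.53 without NC3 and -0.55 without HC1, and did not pass the thresholds in any of the 3 fits. Nrg1 also missed the thresholds with a pseudocount of 5 RPM, with a filter at 1 RPM and with a prior variance that follows the mean. Further misses were edgeR with a filter (-1.12) and without (-1.09) and the fit of the libraries with Xist alone (-0.70).

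The receptors gave no separation of the groups. Egfr was at 77.6, 40.1 and 40.1 RPM in NC1, NC2 and NC3. In HC1 to HC4 it was at 17.3, 19.7, 50.4 and 54.4 RPM. HC1 and HC2 lay below every normocapnia library, whereas HC3 and HC4 lay above NC2 and NC3, and the difference was -0.66 ± 0.54 (SE). Erbb2 was at 25.8, 2.52 and 2.2 RPM in NC1, NC2 and NC3. HC1 to HC4 gave 3.81, 5.28, 13.6 and 14.1 RPM. NC1 stood far above the other normocapnia libraries, and the difference of 0.43 ± 0.93 (SE) became 1.43 without NC1. Erbb3 was at 6.42, 0.513 and 0.0690 RPM in NC1, NC2 and NC3. The hypercapnia values, HC1 to HC4, were 1.03, 0.452, 1.0 and 0.812 RPM. Here too NC1 was highest and NC3, with 1 read, lowest, a 93.1-fold range within normocapnia. The difference of -0.34 ± 0.70 (SE) turned to 0.51 without NC1.

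Erbb2 and Pax7 had nearly the same order of libraries. Pax7 was at 268, 8.25 and 4.34 RPM in NC1, NC2 and NC3 and at 21.5, 20.1, 79.5 and 59.6 RPM in HC1 to HC4. Both genes were highest in NC1, next in HC3 and HC4, then in HC1 and HC2, and lowest in NC2 and NC3. Of the 12 genes of the satellite and myogenic list, 8 including Pax7 kept this order of libraries and 4 (Myf5, Calcr, Des and Sdc4) broke it. Myf5 was higher in NC3 (26.6 RPM) than in HC1 and HC2 (23.3 and 16.9 RPM), Calcr was lowest in HC1 (0.086 RPM), and Sdc4 was highest in NC2 (781 RPM). By the root-mean-square difference between centred log2(RPM + 1) values, the 5 genes nearest to Erbb2 were Mira (0.13), Spats2 (0.16), Lrp4 (0.17), Ciita (0.17) and Yap1 (0.18). Lrp4 encodes the agrin receptor of the neuromuscular junction, Ciita the regulator of MHC class II genes in immune cells and Yap1 a Hippo pathway coactivator. These genes were named after their values were seen. The share of the cell mixture in the receptor values was not tested.

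**Figure D2:**
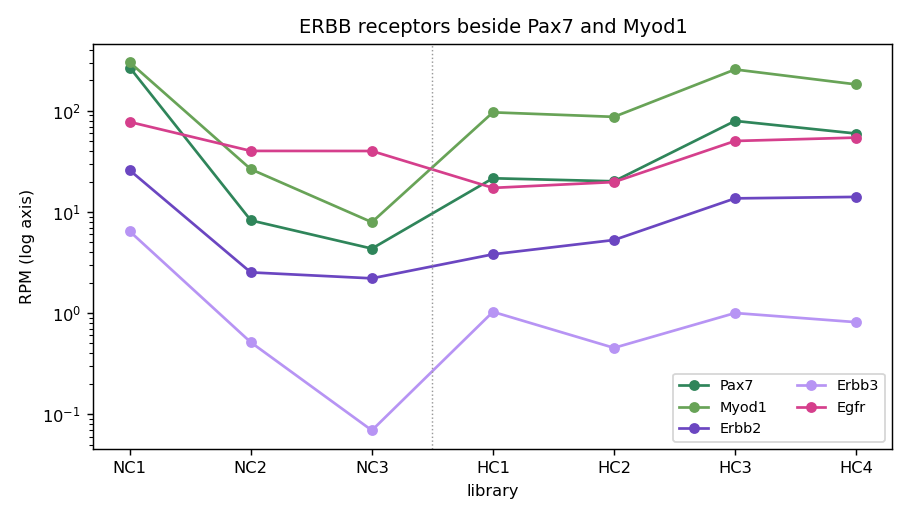
RPM (log axis) of Erbb2, Erbb3 and Egfr beside Pax7 and Myod1 in each library; lines only join the points of a gene, and the dotted line parts normocapnia from hypercapnia. Erbb2 and Pax7 are highest in NC1 (25.8 and 268 RPM) and lowest in NC3 (2.2 and 4.34 RPM), whereas Egfr is lowest in HC1 (17.3 RPM).

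Calls followed the thresholds of the study, an unadjusted p under 0.05 and a change over 1.5-fold, in a limma fit over all 23930 genes. Of the 10 genes, 3 (Ereg, Areg and Nrg1) passed as lower and 0 as higher in hypercapnia, Tgfa passing as higher in the alternatives named above. Among all genes 272, or 1.14%, passed as lower and 343, or 1.43%, as higher. Groups that do not overlap were found lower in hypercapnia for 3 of the 10 genes, against 2.3% of all genes, and higher for 1 of the 10, against 2.53% of all genes. Nothing is read from these counts, since the comparison that chose the 10 genes is the one counted. Once the p-values of all genes were adjusted by Benjamini-Hochberg, limma kept 0 genes (1114 had an unadjusted p under 0.05), edgeR called 0 with or without a filter and DESeq2 called 29. The split of calls differed between tools. On whole reads edgeR with a filter called 508 genes lower and 294 higher, and DESeq2 785 lower and 519 higher, whereas median-of-ratios scaling within limma gave 295 lower and 315 higher. The median difference of the 12504 genes averaging 1 RPM or more was 0.16, and it was 0.04 after median-of-ratios scaling, under which Ereg stood at -3.23, Areg at -1.98 and Nrg1 at -0.80. The median over the 10 genes was -0.24, beside 0.02 over all genes.

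**Figure D3:**
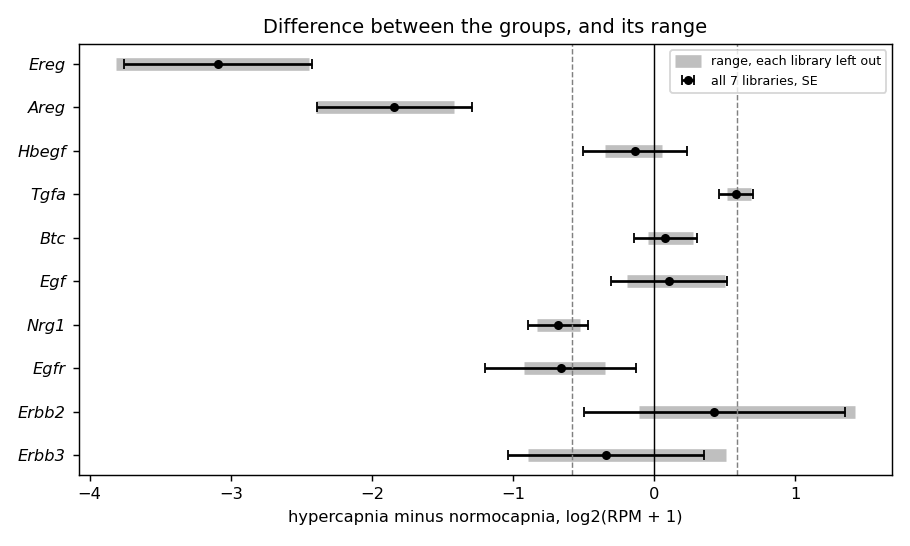
Difference between hypercapnia and normocapnia in log2(RPM + 1) for each of the 10 genes, as points with SE from all 7 libraries, with grey bars for the range when each library is left out in turn and dashed lines at a 1.5-fold change. Ereg, Areg, Nrg1 and Egfr stay below 0 and Tgfa above 0 throughout, whereas the bars of Hbegf, Btc, Egf, Erbb2 and Erbb3 cross 0.

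The difference of Ereg was of like size among the libraries with Xist and those with Y-linked genes. It was -3.24 with NC1 and NC2 against HC1 and HC2, and -3.02 with NC3 against HC3 and HC4. Ereg did not pass the thresholds in the fit of the libraries with Xist alone. For Areg the values were -1.39 and -2.43, for Nrg1 -0.70 and -0.82, and for Tgfa 0.41 and 0.79. These 4 genes kept their direction in both classes. The receptors did not, with -1.55 and 0.38 for Egfr, -0.82 and 2.21 for Erbb2 and -0.97 and 0.83 for Erbb3, and among the other ligands Hbegf had -0.61 and 0.33, Btc -0.23 and 0.49 and Egf -0.48 and 0.99. The class with Y-linked genes has NC3 as its only normocapnia library, so the class and that library cannot be told apart. Among the hypercapnia libraries, sums of other cell types parted in the same way. The endothelial genes summed to 77.7 and 60.0 RPM in HC1 and HC2 and to 578 and 442 RPM in HC3 and HC4. The fibro-adipogenic genes summed to 1075 and 973 RPM and to 1942 and 2372 RPM. Most of this gap lay in Dcn, at 188 and 169 RPM in HC1 and HC2 and at 1050 and 1356 RPM in HC3 and HC4. Col3a1 went the other way (144 and 96.7 against 58.6 and 64.5 RPM), and Col1a1 and Ly6a did not part these libraries. In NC1, NC2 and NC3 these sums were 251, 124 and 90.5 RPM for the endothelial genes and 1897, 1347 and 1067 RPM for the fibro-adipogenic genes, so that NC3 was not on the side of HC3 and HC4. Their part in the receptor values was not tested.

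In the RefSeq annotation (GRCm38.p6), Epgn, Ereg, Areg and Btc are 4 consecutive protein-coding genes of chromosome 5, with Cxcl2 and Mthfd2l before them and Parm1 after. Large differences in this row were those of Ereg and Areg. Epgn, which encodes epigen, was at 0.268, 0.171 and 0.207 RPM in normocapnia and at 0.342, 0.151, 0 and 0.406 RPM in hypercapnia, at or near the floor throughout. Mthfd2l, a mitochondrial folate enzyme, ran from 9.62 to 23.4 RPM, with a difference of -0.37 ± 0.33 (SE). Parm1 had -0.12 ± 1.04 (SE). Cxcl2, a chemokine for neutrophils, was at 702, 4140 and 2263 RPM in NC1, NC2 and NC3 and at 925 to 1578 RPM in hypercapnia, with -0.64 ± 0.63 (SE). None of Epgn, Mthfd2l, Parm1 and Cxcl2 passed the thresholds (lowest adjusted p = 0.92, limma with Benjamini-Hochberg). NC2 held the highest value of Cxcl2, Ereg and Areg alike.

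The 250 bases before the start of Areg are shown because this gene was lower and because its promoter holds a cyclic AMP response element (CRE), the binding site of the CREB factors. The sequence is from RefSeq (GRCm38.p6), chr5:91139349-91139598, plus strand, with the CRE in capitals.
Areg promoter: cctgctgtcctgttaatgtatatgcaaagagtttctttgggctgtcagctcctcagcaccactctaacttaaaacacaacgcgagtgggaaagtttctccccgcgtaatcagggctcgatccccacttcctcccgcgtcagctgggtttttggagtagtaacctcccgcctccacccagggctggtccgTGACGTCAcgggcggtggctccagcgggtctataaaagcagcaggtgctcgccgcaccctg
The element begins 61 bases and ends 54 bases before the start. Searched on both strands, TGACGTCA was found in the same window of 1.55% of 32851 promoters, the AP-1 site TGANTCA in 6.75% and the EGR site GCGNGGGCG in 4.7%. The table held windows for Areg, Btc, Egf (2 windows), Tgfa, Egfr and Erbb2. Apart from the CRE of Areg, none of the 3 motifs was found in these 7 windows. A match is a sequence description and shows no binding.

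Genes with a pattern most like that of Ereg or Areg were sought among 12496 genes averaging 1 RPM or more, none of them among the 10. Likeness was the root-mean-square difference between log2(RPM + 1) values over the 7 libraries, each gene centred on its own mean. Nearest to Ereg were Dpep3 (0.59), Car6 (0.75), Vsig8 (0.77), Il1a (0.79) and Cxcl13 (0.81), where the spread of Ereg itself by the same measure was 1.72. Dpep3 encodes a membrane dipeptidase, and it was at 7.63, 25.7 and 11.6 RPM in NC1, NC2 and NC3 and at 0.542 to 2.62 RPM in hypercapnia. Il1a, the cytokine interleukin 1 alpha, was at 12.8, 232 and 41.6 RPM in normocapnia and at 5.33 to 26.9 RPM in hypercapnia, so that its groups overlapped. Cxcl13, a chemokine for B cells, was at 5.58, 28.0 and 57.8 RPM in normocapnia and at 0.203 to 3.17 RPM in hypercapnia.

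Nearest to Areg were Fpr1 (0.35), Dennd4a (0.39), Car6 (0.41), Cacna1d (0.42) and Dpep3 (0.45), against a spread of 1.11 for Areg itself. Dpep3 and Car6 were thus among the 5 nearest genes of both ligands. Car6 encodes the secreted carbonic anhydrase 6, an enzyme that converts CO2 and bicarbonate, and it was at 2.59, 9.49 and 14.3 RPM in NC1, NC2 and NC3. In HC1 to HC4 it was at 0.899, 1.10, 1.56 and 0.474 RPM. Fpr1, a receptor of myeloid cells for bacterial peptides, was at 9.68, 53.4 and 37.9 RPM in normocapnia and at 6.16 to 16.4 RPM in hypercapnia. All these genes share with the ligands a high value in NC2 or NC3, and likeness over 7 libraries of the same cells says nothing of a common source.

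**Figure D4:**
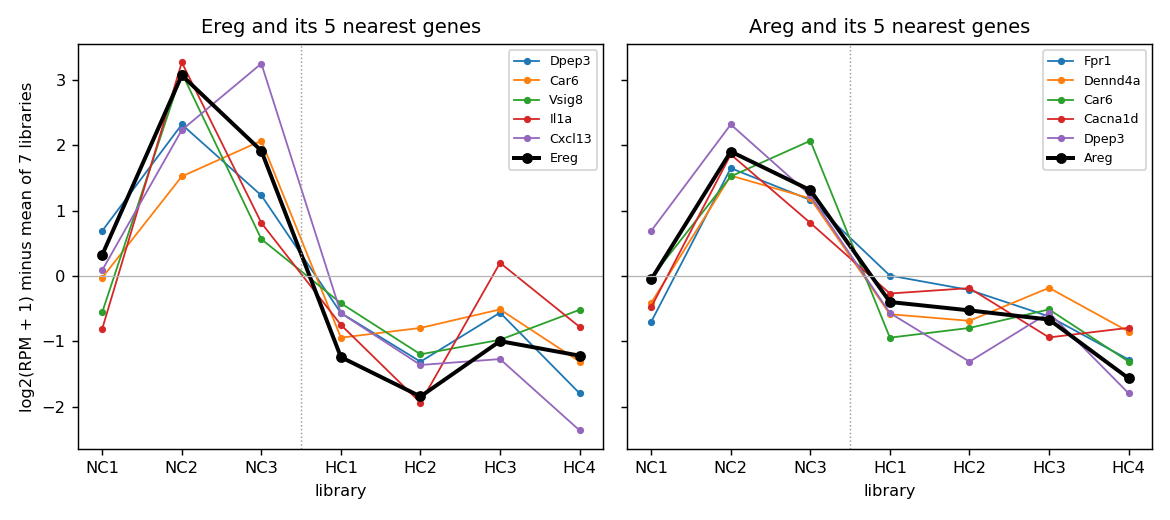
log2(RPM + 1) of Ereg (left) and Areg (right) in black with their 5 nearest genes in color, each minus its mean over the 7 libraries; lines only join the points of a gene, and the dotted line parts normocapnia from hypercapnia. All curves peak in NC2 or NC3, and NC1 lies between these libraries and the hypercapnia libraries for Ereg (6.65 RPM) and Areg (12.7 RPM).

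Further members of the family were described by their own levels in each library. Nrg2, a neuregulin, was at 1.74, 4.02 and 1.38 RPM in NC1, NC2 and NC3 and at 0.471, 2.11, 0.50 and 3.45 RPM in HC1 to HC4. Nrg4 was at 0, 1.5 and 0.826 RPM in normocapnia and at 1.11, 1.66, 0.437 and 0.406 RPM in hypercapnia. Erbb4, the remaining receptor, was at 0.134 RPM in NC1 and at 0.050 and 0.0680 RPM in HC2 and HC4, and at 0 in the other 4 libraries. Nrg3 was at 0 in all 7 libraries, which allows up to 0.128 to 0.207 RPM. Including Epgn, none of these 5 genes passed the thresholds in the limma fit. Erbb4 rested on at most 3 reads a library, so its level was not distinguishable from the floor at this depth.

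Around and downstream of the receptors, calls of both directions together were about as frequent as among all genes in the limma fit of all libraries. Of 82 pathway genes in the table, 2 passed the thresholds as lower, 0 as higher and 0 after adjustment over all genes (lowest adjusted p = 0.73, limma with Benjamini-Hochberg; 6 had an unadjusted p under 0.05). Among all genes 1.14% passed as lower and 1.43% as higher, so the share over both directions is near the background and is no result about the pathway. The count of pathway genes called ran from 1 without HC1 or without HC2 to 9 without NC1. The 2 genes were Gab1 and Nf1. Gab1, a docking protein that links receptors to PI3 kinase and SHP2, was at 65.3, 102 and 94.8 RPM in NC1, NC2 and NC3 and at 49.4, 54.8, 50.3 and 45.1 RPM in HC1 to HC4. Its groups did not overlap (lower in hypercapnia, as for 2.3% of all genes), and its difference was -0.77 (adjusted p = 0.73, limma). It stayed between -0.97 and -0.65 with any library left out. Nf1, which encodes neurofibromin, a brake on RAS, was at 67.3, 59.9 and 106 RPM in normocapnia and at 40.1, 43.3, 57.9 and 41.3 RPM in hypercapnia, with a difference of -0.73 (adjusted p = 0.92, limma). It passed the thresholds in 12 of 17 alternatives. It missed them without NC3 (-0.48), without HC1 (-0.67), HC2 (-0.71) or HC4 (-0.68) and under median-of-ratios scaling (-0.87).

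The 11 genes of ligand shedding had 0 calls and a median difference of 0.16, with 4 lower and 7 higher. Adam8 was at 82.9, 359 and 215 RPM in NC1, NC2 and NC3 and at 184 to 272 RPM in hypercapnia. Adam9 was at 144, 189 and 422 RPM in normocapnia and at 162 to 174 RPM in hypercapnia. Adam17, the main sheddase of Areg, Hbegf and Tgfa, was named after its values were seen, and ran from 6.20 RPM in NC3 to 70.5 RPM in HC1 with overlapping groups. The 28 adaptors and kinases had 1 call, Gab1, and a median of 0.01, with 14 lower and 14 higher. The adaptor Grb2 was at 364, 497 and 57.6 RPM in normocapnia and at 535 to 684 RPM in hypercapnia. All 4 hypercapnia libraries lay above normocapnia, as for 2.53% of all genes. Grb2 did not pass the thresholds (adjusted p = 0.92, limma), and the difference of 1.42 was 0.47 without NC3. Akt1 was at 767, 558 and 182 RPM in normocapnia and at 485 to 692 RPM in hypercapnia.

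The 19 receptor brakes in the table had 1 call, Nf1, and a median of -0.10, with 11 lower and 8 higher. Their sum was 1861 to 1990 RPM in normocapnia and 1479 to 1829 RPM in hypercapnia, without overlap and with no test. Without Spred1, which had the highest mean RPM of them, the sums overlapped, at 1271 to 1442 RPM and 1142 to 1441 RPM. Spred1, an inhibitor of RAF activation, was at 419, 507 and 719 RPM in NC1, NC2 and NC3 and at 335 to 441 RPM in hypercapnia, with a difference of -0.52 that did not pass the thresholds (adjusted p = 0.92, limma). Errfi1 (MIG6), which binds and blocks Egfr, was at 304, 276 and 134 RPM in normocapnia and at 198 to 440 RPM in hypercapnia. The 19 genes that respond to ERK had 0 calls and a median of 0.04, with 8 lower and 11 higher. Fos was at 2552, 4114 and 1784 RPM in normocapnia and at 2498 to 2890 RPM in hypercapnia, a difference of 0.05. Egr1 was at 1893, 1748 and 4196 RPM in normocapnia and at 1069 to 1923 RPM in hypercapnia, with a difference of -0.81 that did not pass the thresholds (adjusted p = 0.92, limma). The ERK-responsive list summed to 9520 to 14948 RPM in normocapnia and 8697 to 9655 RPM in hypercapnia, which overlapped, with NC1 to NC3 spread more widely than HC1 to HC4.

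**Figure D5:**
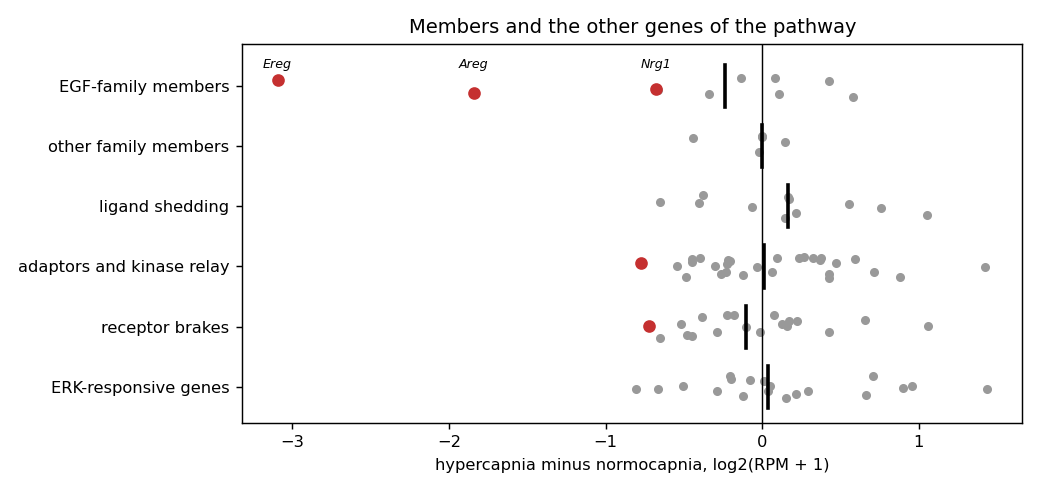
Difference between hypercapnia and normocapnia in log2(RPM + 1) for the 10 genes and for 5 lists of other pathway genes, 1 point a gene, with red for genes past p under 0.05 and 1.5-fold and black bars for medians; vertical scatter only parts the points. Ereg (-3.09) and Areg (-1.84) lie outside the range of the other lists, whose medians run from -0.10 to 0.16.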

How the data were processed

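The authors made libraries with the Ion AmpliSeq Transcriptome Mouse kit, which reads each gene from 1 amplicon, and sequenced them on an Ion S5 system. They deposited RPM per gene for all 7 libraries, and the processing notes name the Transcriptome Analysis Console. The aligner and build used were not given in the sources used here. Strand is not stated. In the deposited RPM values, a single read is worth 0.0428 to 0.0688 RPM, from which whole reads were recovered for 100% of values, within 0.05 reads. Library totals ran from 14527445 to 23388710 reads.

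Groups were taken from the labels. All 23930 genes were fitted with limma 3.58.1 (R 4.3.3) on log2(RPM + 1), unfiltered, and called at an unadjusted p under 0.05 and a change over 1.5-fold, with Benjamini-Hochberg adjustment over all genes beside it.

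The 10 genes and all gene lists were chosen with earlier results of these data known. The lists cover other family members, ligand shedding, adaptors and kinases, receptor brakes, ERK-responsive genes and markers of satellite and myogenic cells, macrophages, neutrophils, lymphoid cells with mast cells and basophils, endothelial, fibro-adipogenic, Schwann and epithelial cells, and sex-linked genes. Spry1, Phlda1 and Pi16 had no row in the table. Named were all 10 genes and all other family members. From each further pathway list the genes called with a mean of at least 1 RPM were named, up to 4, and the 2 with the highest mean RPM. For Ereg and Areg the 5 genes nearest in pattern were named, and marker lists were given by their sums with 8 single genes by their range. Neighbors of Ereg on chromosome 5, Adam17, Foxp3 and the genes nearest to Erbb2 were added after values were seen. So were the markers Cdh1, Epcam, Krt8, Krt18, Myf5, Calcr, Des, Sdc4, Mmp8, Mcpt8, Dcn, Col1a1, Col3a1 and Ly6a.

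Alternatives were a pseudocount of 0.1 or 5 RPM, median-of-ratios scaling, keeping only genes averaging 1 RPM, a prior variance trended on the mean, DESeq2 1.42.0 and edgeR 4.0.16 (quasi-likelihood, both filtered and unfiltered) on whole reads, the replicate number as a block, and leaving out each library. Fits with the class by Xist, or within it, were added after the data were seen.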

Additional observations from a re-analysis of the deposited data

Results flagged for a closer look

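Hbegf and Egfr moved in opposite directions in the libraries with Xist and those with Y-linked genes. Every hypercapnia library lay below every normocapnia library in the first class (-0.61 and -1.55 on the log2(RPM + 1) scale), and every one lay above NC3, the only normocapnia library, in the second (0.33 and 0.38). Among the named pathway genes the same held for Akt1 (-0.43 and 1.89) and for Errfi1 (-0.37 and 1.59). These 4 were found among 25 genes compared, and the difference between the classes was not tested. Endothelial sums also parted HC1 and HC2 (77.7 and 60.0 RPM) from HC3 and HC4 (578 and 442 RPM). Fibro-adipogenic sums did too (1075 and 973 against 1942 and 2372 RPM), mostly through Dcn (188 and 169 against 1050 and 1356 RPM). The part of either sum in the values of the 4 genes was not tested.

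Adam9 in HC2, at 162 RPM, lay apart from HC1, HC3 and HC4, which were at 173 to 174 RPM. It was the 1 such library among 25 genes looked at in the hypercapnia group, where chance alone marks about 1 in 20.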

How the results depend on the processing

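With 3 and 4 libraries, counts of calls moved with single libraries. Over all genes 615 were called. The count was 1049 in edgeR without a filter, 1304 in DESeq2 (785 lower, 519 higher) and 1210 with the class by Xist as a covariate, and ran from 376 without HC2 to 1990 without NC1 (385 without HC1, 1205 without NC2). Of the 10 genes 3 were called, against 2 with a pseudocount of 5 RPM, the 1 RPM filter, the trended prior or unfiltered edgeR, 4 with a pseudocount of 0.1 RPM or in DESeq2, and 1 to 4 with a library left out, the lowest without NC3. Of the pathway genes 2 were called, against 1 under median-of-ratios scaling, 4 in edgeR without a filter, 4 in DESeq2 and 6 with the class as a covariate, and 1 to 9 with a library left out (1 without HC1 or HC2, 5 without NC3, 6 without NC2, 9 without NC1). The cause was not tested.

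Replicate numbers did not pair the samples, since the deviations of NC1 and HC1 correlated at -0.35, of NC2 and HC2 at 0.50 and of NC3 and HC3 at -0.04. With the replicate number as a block, which leaves HC4 without a partner, 598 genes, 2 of the 10 genes and 5 pathway genes were called, Areg being the gene of the 10 that was lost. Ereg, Areg and Nrg1 kept a negative sign and Tgfa a positive one under every alternative, from -4.39 to -2.0, -2.43 to -1.39, -1.16 to -0.33 and 0.15 to 2.28. Tgfa has no value with the filter at a mean of 1 RPM, and Btc has none there or in edgeR with its filter. Values near 3 reads limit Tgfa, Btc, Epgn and Erbb4.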
